A study of Mus musculus with 8 samples.

Results

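The genes described here are 41 mouse genes of the G2 phase and mitosis, taken by name from the deposited table of raw read counts. All 41 were found among its 55414 genes, and all 41 passed the expression filter that left 15150 genes for testing. The rule that lists them names known G2 and mitosis genes and uses no measured value. The cells were cultured cardiac fibroblasts, the matrix-producing connective tissue cells of heart muscle, from C57BL/6J mice. At passage 2 they were starved of serum for 24 h and exposed for 5 h to an adenovirus carrying Has2, the gene for hyaluronan synthase 2, or to a control adenovirus carrying green fluorescent protein (GFP). Fresh medium was then added, for which the protocol lists bFGF and TGFb at 20 ng/mL, and RNA was collected after 48 h of that stimulation. Each virus had 4 libraries, numbered 1 to 4, and the GFP and Has2 libraries of the same number carry the same preparation identifier, so that they form 4 pairs. Replicates 1 and 2 are labelled female and replicates 3 and 4 male. The preparation identifiers of the sexes come from different series, so a difference between sexes and one between series cannot be told apart. The genotype is given as wild type, while the protocol names Has2fl/fl mice, and a Cre virus that the protocol also names is not analysed here. The ages of the mice are not stated in the sources at hand, and nothing says that each preparation was a separate animal; p values therefore measure the spread between these samples and may be technical.

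Dividing cells build up a set of transcripts during G2 and mitosis and clear most of them when division ends. The set encodes the cyclin-dependent kinase that starts mitosis, the kinases and checkpoint proteins that watch over chromosome attachment, the motors of the spindle, and the ubiquitin machinery that ends mitosis. Promoters of such genes hold a short element called CHR, bound by the MuvB proteins, which repress as part of the DREAM complex and activate with B-Myb and FoxM1, often near CCAAT boxes that bind NF-Y. In the adult heart, fibroblasts rarely divide, but they enter the cycle after injury and in culture with serum or growth factors.

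Libraries held 46981231 to 55795187 counts, and the 41 genes had between 49 and 3089 counts in a library. Levels are given as CPM, counts scaled to a common library size with edgeR's TMM factors. Has2 itself stood at 25.2, 7.36, 18.3 and 21.3 CPM in GFP replicates 1 to 4 and at 9533, 8406, 3209 and 4860 CPM in Has2 replicates 1 to 4, so Has2 was high in each library labelled Has2 and low in each labelled GFP; no GFP or adenovirus transcript was measured. Counts of Has2 may include the transcript that the virus delivers. Fibroblast markers, all 12 of them measured, summed to 25834 to 39431 CPM with the GFP virus and 26048 to 40156 CPM with the Has2 virus. Markers of macrophages were also present: 1 of 14, Cd163, was under 1 CPM in every library, none was at 0, and their sum ran from 999 to 2471 CPM with the GFP virus and from 938 to 2620 CPM with the Has2 virus. Endothelial markers summed to 27.04 to 48.0 CPM with the GFP virus and 25.2 to 47.3 CPM with the Has2 virus. Markers of pericytes and smooth muscle summed to 49.6 to 88.7 CPM with GFP and 57.2 to 98.0 CPM with Has2, and epicardial or mesothelial ones to 3.00 to 6.17 and 3.49 to 7.49 CPM. Of 9 cardiomyocyte markers 8 were under 1 CPM in every library, with Pln and Myl7 at 0, while Tnnt2 stood at 3.34 to 8.46 CPM. All 7 T and B cell markers were under 1 CPM. Since RNA came from whole cultures, fewer dividing cells and less of a transcript per cell cannot be told apart.

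None of the 41 genes passed the test between the Has2 and GFP viruses, although nearly all had a slightly lower fitted level with Has2. With the replicate number as a block, edgeR's quasi-likelihood test called 0 of 41 at an adjusted p under 0.05, where it called 0.0066% of all genes tested, namely Has2 alone. The smallest adjusted p among the 41 was 0.648. At an unadjusted p under 0.05 there were 2 of the 41, Hmgb2 and Ttk, and 1134 of all 15150 genes. DESeq2 with and without the block and limma-voom with it also called 0 of 41. Over all 15150 genes they called 61, 7 and 1, in that order. The log2 fold change, Has2 over GFP, was negative for 40 of 41 genes (39 with RLE scaling, 40 with library totals and 37 after a correction for GC content and transcript length, here called GC correction), against 54.8% of all genes, and the median was -0.17 against -0.02. It ran from -0.72 for Bub1 to 0.03 for Cdca3, and the 95% interval held 0 for 39 genes and lay within 2-fold in either direction for 32. The GFP and Has2 values overlapped for all 41 genes, which is a description only and was not compared with all genes tested.

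The pairs did not share 1 direction. In the pair of replicate 1, 15 of 41 genes were lower with Has2, with a median difference of 0.02 on the log2(CPM + 2) scale. The pairs of replicates 2, 3 and 4 had 31, 29 and 26 genes lower, with medians of -0.17, -0.12 and -0.16. Only Ccnb1 and Hmgb2 were lower in all 4 pairs, 18 genes were lower in 3 pairs, 18 in 2, and Ccnb2, Plk1 and Cdca3 in 1. Averaged over the 41 genes, the mean log2(CPM + 2) was 3.83, 3.64, 3.91 and 4.26 in GFP replicates 1 to 4 and 3.84, 3.44, 3.57 and 3.98 in Has2 replicates 1 to 4. The highest mean was that of GFP replicate 4 and the lowest that of Has2 replicate 2, and the groups overlapped. In blocked fits without the pairs of replicates 1, 2, 3 and 4 in turn, the median log2 fold change was -0.16, -0.15, -0.18 and -0.20, with 36, 33, 41 and 39 of 41 genes negative. Dropping 1 library of a pair, which needs a fit with no block and lets differences between preparations enter the virus effect, gave 0.02 without GFP replicate 4, with 18 negative, and -0.03 without Has2 replicate 2, with 24 negative.

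**Figure D1:**
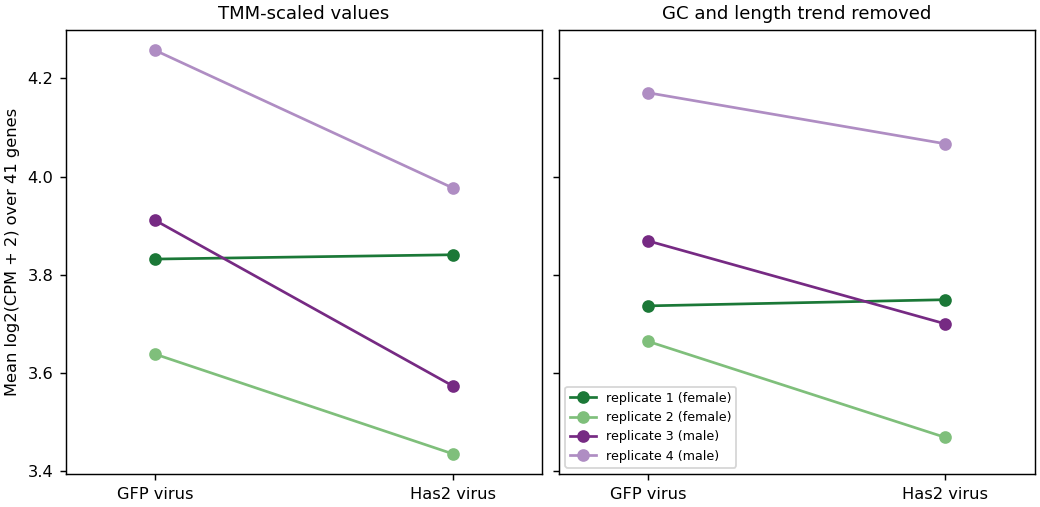
Mean log2(CPM + 2) over the 41 genes in each library, with lines that join the GFP and Has2 libraries of 1 replicate number; left, TMM-scaled values, and right, values with the trend of transcript GC content and length removed. The line of replicate 1 is flat (3.83 and 3.84), the other lines slope down, and replicate 4 is highest with both viruses.

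The promoters of 4 genes are shown so that their sequences can be compared, each from 250 bases before to 50 bases after the start of the gene, in RefSeq's annotation of GRCm38.p6. The difference in fold change, male minus female pairs, was negative for Mki67 and Top2a and positive for Cdc20 and Cenpa. With GC correction that of Top2a was -0.03. Windows were matched by symbol for 34 of the 41 genes, in 36 windows because Ect2 and Gtse1 have 2 each. Kif20a, Dlgap5, Tpx2, Aurkb, Cdc25c, Ccna2 and Smc4 had no window in the table. Each sequence runs 5′ to 3′ on the strand of the gene. Capitals mark TTTGAA, a core form of the CHR element, TTTAAA, another form of it, and CCAAT, the box bound by NF-Y, each on either strand (TTCAAA and ATTGG are the reverse forms). Mki67 lies at chr7:135716330-135716629 on the minus strand and Top2a at chr11:99024140-99024439 on the minus strand; both had lower values with Has2 in the male pairs. Cdc20 lies at chr4:118437294-118437593 on the minus strand and Cenpa at chr5:30666636-30666935 on the plus strand; both had lower values with Has2 in the female pairs.
Mki67: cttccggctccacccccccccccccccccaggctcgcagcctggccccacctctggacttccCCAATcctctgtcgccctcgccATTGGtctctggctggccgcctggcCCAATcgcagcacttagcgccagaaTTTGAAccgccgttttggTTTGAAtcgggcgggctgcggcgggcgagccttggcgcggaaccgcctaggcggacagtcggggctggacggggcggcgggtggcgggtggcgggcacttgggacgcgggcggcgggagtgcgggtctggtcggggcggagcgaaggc
Top2a: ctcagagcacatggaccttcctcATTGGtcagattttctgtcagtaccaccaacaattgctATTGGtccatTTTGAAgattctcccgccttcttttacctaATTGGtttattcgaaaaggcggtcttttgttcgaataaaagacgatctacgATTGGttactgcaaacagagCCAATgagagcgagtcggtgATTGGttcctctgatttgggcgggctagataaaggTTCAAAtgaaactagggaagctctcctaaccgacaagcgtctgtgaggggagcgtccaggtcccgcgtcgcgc
Cdc20: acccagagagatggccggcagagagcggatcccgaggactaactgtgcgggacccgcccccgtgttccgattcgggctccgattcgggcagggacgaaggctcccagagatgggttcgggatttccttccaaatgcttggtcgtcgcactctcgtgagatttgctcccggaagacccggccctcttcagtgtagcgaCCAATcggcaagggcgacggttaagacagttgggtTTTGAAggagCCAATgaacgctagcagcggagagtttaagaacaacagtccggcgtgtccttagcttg
Cenpa: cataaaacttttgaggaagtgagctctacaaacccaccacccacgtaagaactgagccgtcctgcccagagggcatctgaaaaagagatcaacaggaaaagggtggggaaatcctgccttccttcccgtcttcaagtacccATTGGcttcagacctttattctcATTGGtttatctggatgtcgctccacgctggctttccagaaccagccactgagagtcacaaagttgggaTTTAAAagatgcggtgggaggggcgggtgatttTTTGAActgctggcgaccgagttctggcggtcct

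All 4 windows hold TTTGAA and CCAAT, and that of Cenpa holds TTTAAA as well. TTTGAA was present on either strand in 26 of 36 windows (72.2%), against 17.9% of 32851 windows in the table, CCAAT in 28 (77.8% against 37.4%) and TTTAAA in 11 (30.6% against 13.2%). A match can share bases with a match of another motif, as in the window of Cdca8, and is no evidence of binding. Of the 16 genes whose fold change was called lower in male than in female pairs (described with that comparison), 14 have a window and 10 of these hold TTTGAA, and of the other 20 genes with a window 15 do; this difference was not tested.

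The cyclin-dependent kinase engine starts mitosis, and 0 of its 7 genes passed the virus test, with a median log2 fold change of -0.15. Cdk1, the kinase itself, was at 29.5, 28.8, 35.2 and 39.8 CPM in GFP replicates 1 to 4 and 25.9, 20.99, 33.01 and 43.03 CPM in Has2 replicates 1 to 4. It was highest in Has2 replicate 4 and lowest in Has2 replicate 2, and its log2 fold change was -0.15 (95% interval -0.44 to 0.13, SE 0.12). Ccna2, cyclin A2, was at 16.4, 13.5, 17.996 and 26.8 CPM in GFP replicates 1 to 4 and 17.6, 12.99, 12.1 and 21.96 CPM in Has2 replicates 1 to 4. GFP replicate 4 was highest and Has2 replicate 3 lowest, and the log2 fold change was -0.20 (95% interval -0.53 to 0.12, SE 0.14). Of the B-type cyclins, which complete the kinase, Ccnb2 (ENSMUSG00000032218) was at 11.4, 13.3, 14.3 and 19.2 CPM in GFP replicates 1 to 4 and 11.9, 9.296, 14.7 and 20.7 CPM in Has2 replicates 1 to 4. Ccnb2 was lower with Has2 in the pair of replicate 2 and slightly higher in the other pairs, with a log2 fold change of -0.07 (95% interval -0.40 to 0.25, SE 0.14). Ccnb1 was lower in all 4 pairs, yet each difference was small, with 8.41, 7.78, 9.05 and 13.04 CPM in GFP replicates 1 to 4 and 7.58, 7.33, 8.23 and 11.8 CPM in Has2 replicates 1 to 4. Cks1b (ENSMUSG00000028044) encodes a small protein that binds the kinase and was the most abundant of the 41 genes per length, at 47.02 CPM per kb of transcript with the GFP virus. Its level was 33.1, 35.9, 45.4 and 45.3 CPM in GFP replicates 1 to 4 and 31.6, 25.04, 45.05 and 50.3 CPM in Has2 replicates 1 to 4, and its log2 fold change was -0.11 (95% interval -0.42 to 0.20, SE 0.13). The related Cks2 (ENSMUSG00000062248) was at 8.85, 9.903, 9.92 and 11.7 CPM in GFP replicates 1 to 4 and 8.91, 7.33, 6.63 and 9.93 CPM in Has2 replicates 1 to 4. Cks2 had the most negative value of this role, -0.31 (95% interval -0.63 to 0.01, SE 0.13), and was about level in the pair of replicate 1 and lower in the other pairs; with GC correction its value was -0.05, and those of Cdk1 (-0.14) and Ccna2 (-0.10) were more negative. Cdc25c, the phosphatase that activates Cdk1, was among the least abundant of the genes, at 2.57 ± 0.851 CPM in GFP and 2.38 ± 1.09 CPM in Has2 libraries (SD, n = 4 each).

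Among the mitotic kinases and the spindle checkpoint 0 of 6 genes passed, with a median of -0.13. Bub1 (ENSMUSG00000027379), a checkpoint kinase at the kinetochore, was at 5.47, 2.65, 6.397 and 8.82 CPM in GFP replicates 1 to 4 and 5.48, 2.83, 1.89 and 3.81 CPM in Has2 replicates 1 to 4. It was lower with Has2 by more than 2-fold in both male pairs and nearly level in both female pairs, and its log2 fold change over all pairs was -0.72 (95% interval -1.51 to 0.07, SE 0.33). The checkpoint kinase Ttk, also called Mps1, followed with 2.49, 1.86, 2.89 and 4.14 CPM in GFP replicates 1 to 4 and 2.66, 1.35, 1.23 and 2.26 CPM in Has2 replicates 1 to 4, and a value of -0.62 (95% interval -1.18 to -0.05, SE 0.24). Bub1b (ENSMUSG00000040084), which encodes the checkpoint inhibitor BubR1, was the steadiest of the 41 genes, at 12.9, 12.9, 13.2 and 16.9 CPM in GFP replicates 1 to 4 and 11.9, 12.8, 14.7 and 15.9 CPM in Has2 replicates 1 to 4. Its highest and lowest libraries differed 1.42-fold, and its log2 fold change was -0.01 (95% interval -0.26 to 0.24, SE 0.11), with a sign that turned to 0.00 or above with RLE scaling, DESeq2 and no expression filter. Plk1 (ENSMUSG00000030867), a kinase needed at many steps of mitosis, was the most abundant of this role per length and stood at 14.7, 16.7, 17.6 and 22.2 CPM in GFP replicates 1 to 4 and 14.8, 10.9, 17.98 and 25.8 CPM in Has2 replicates 1 to 4. Only the pair of replicate 2 was clearly lower for Plk1, and the log2 fold change was -0.09 (95% interval -0.45 to 0.28, SE 0.15). The Aurora kinases were at 11.9 ± 2.84 CPM in GFP and 10.9 ± 4.34 CPM in Has2 libraries for Aurka, which acts at spindle poles, and at 7.46 ± 2.33 CPM in GFP and 7.498 ± 3.599 CPM in Has2 libraries for Aurkb, which acts at centromeres (SD, n = 4 each).

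At the centromere and kinetochore, where chromosomes meet the spindle, 0 of 7 genes passed and the median was -0.48. Cenpe (ENSMUSG00000045328), a kinetochore motor, was at 8.41, 4.16, 7.47 and 12.3 CPM in GFP replicates 1 to 4 and 11.3, 4.06, 2.303 and 4.82 CPM in Has2 replicates 1 to 4. Has2 replicate 3 was lowest and GFP replicate 4 highest, 5.36-fold apart, and the log2 fold change was -0.65 (95% interval -1.53 to 0.22, SE 0.37). Cenpf, a large kinetochore protein, moved almost in step with Cenpe, at 6.99, 3.64, 6.498 and 10.01 CPM in GFP replicates 1 to 4 and 9.09, 4.02, 2.25 and 4.05 CPM in Has2 replicates 1 to 4. Ndc80, which grips microtubules, was at 4.84, 3.33, 6.07 and 7.400 CPM in GFP replicates 1 to 4 and 5.43, 3.08, 2.67 and 3.75 CPM in Has2 replicates 1 to 4, and its partner Nuf2 at 8.11, 7.32, 9.23 and 10.9 CPM in GFP replicates 1 to 4 and 9.85, 5.03, 4.89 and 6.47 CPM in Has2 replicates 1 to 4. Both were lower with Has2 in both male pairs and in the pair of replicate 2, and higher in that of replicate 1. Cenpa (ENSMUSG00000029177), the histone variant that marks centromeres, went the other way between sexes, with 13.4, 12.2, 17.7 and 17.9 CPM in GFP replicates 1 to 4 and 7.73, 8.496, 17.5 and 19.9 CPM in Has2 replicates 1 to 4. Cenpa was lower with Has2 in both female pairs and level or slightly higher in the male ones, for a log2 fold change of -0.29 (95% interval -0.71 to 0.12, SE 0.17). Birc5 (survivin) and Cdca8 (ENSMUSG00000028873, borealin) belong to the chromosomal passenger complex that carries Aurora B. Cdca8 was at 8.599, 8.98, 10.5 and 12.9 CPM in GFP replicates 1 to 4 and 8.27, 5.91, 11.2 and 14.4 CPM in Has2 replicates 1 to 4, with a log2 fold change of -0.10 (95% interval -0.46 to 0.27, SE 0.15), and Birc5 at 8.599, 8.85, 13.02 and 15.6 CPM in GFP replicates 1 to 4 and 7.73, 5.99, 11.98 and 17.6 CPM in Has2 replicates 1 to 4. For both genes replicate 4 was highest with either virus and Has2 replicate 2 was the lowest library.

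Of the 5 kinesin motors 0 passed, and the median was -0.15. Kif20b (ENSMUSG00000024795), a motor of late mitosis and cytokinesis, varied most of the 41 genes, at 4.61, 1.91, 3.44 and 5.64 CPM in GFP replicates 1 to 4 and 6.36, 1.93, 0.910 and 2.44 CPM in Has2 replicates 1 to 4. Its highest and lowest libraries differed 6.99-fold, and its log2 fold change was -0.63 (95% interval -1.56 to 0.31, SE 0.39). Kif11, which pushes the spindle poles apart, was likewise lower with Has2 in both male pairs, with 7.48, 4.58, 7.91 and 11.6 CPM in GFP replicates 1 to 4 and 9.72, 4.56, 2.805 and 5.56 CPM in Has2 replicates 1 to 4. Kif20a (ENSMUSG00000003779), a motor of the central spindle, was the most abundant motor per length and was nearly flat, at 27.99, 26.8, 24.1 and 32.3 CPM in GFP replicates 1 to 4 and 28.8, 22.1, 26.6 and 32.2 CPM in Has2 replicates 1 to 4. Its log2 fold change was -0.02 (95% interval -0.28 to 0.23, SE 0.11), and the value was 0.01 with no expression filter. Kif23, a part of the centralspindlin complex, was at 7.13 ± 2.202 CPM in GFP and 6.53 ± 2.38 CPM in Has2 libraries, and Kif2c, which takes microtubule ends apart, at 8.39 ± 2.04 CPM in GFP and 7.89 ± 2.93 CPM in Has2 libraries (SD, n = 4 each).

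Spindle and microtubule binding proteins had 0 of 7 genes called and a median of -0.14. Nusap1 (ENSMUSG00000027306), which bundles spindle microtubules, was at 7.73, 6.003, 6.28 and 10.2 CPM in GFP replicates 1 to 4 and 7.76, 6.67, 3.14 and 5.76 CPM in Has2 replicates 1 to 4. With Has2 it was about level or higher in both female pairs and lower in both male ones, with a log2 fold change of -0.41 (95% interval -0.94 to 0.12, SE 0.22). Gtse1 (ENSMUSG00000022385), a microtubule protein of G2 and mitosis, was the most abundant of this role per length and stood at 36.4, 34.6, 40.7 and 41.4 CPM in GFP replicates 1 to 4 and 29.5, 33.3, 43.2 and 42.01 CPM in Has2 replicates 1 to 4. Has2 replicate 1 was lowest, and the log2 fold change was -0.06 (95% interval -0.31 to 0.19, SE 0.11). Tpx2, which activates Aurora A on the spindle, was at 30.001, 25.9, 29.2 and 41.9 CPM in GFP replicates 1 to 4 and 30.6, 21.5, 26.7 and 36.8 CPM in Has2 replicates 1 to 4. Tacc3, which steadies kinetochore microtubules, was at 21.8 ± 2.61 CPM in GFP and 19.8 ± 5.03 CPM in Has2 libraries, and Dlgap5, which binds them near chromosomes, at 9.92 ± 1.89 CPM in GFP and 9.14 ± 2.27 CPM in Has2 libraries (SD, n = 4 each). The spindle proteins Ckap2 and Ckap2l were at 28.5 ± 4.53 CPM in GFP and 26.2 ± 4.88 CPM in Has2 libraries and at 10.7 ± 2.58 CPM in GFP and 9.399 ± 1.86 CPM in Has2 libraries (SD, n = 4 each). For each of these 4 genes the means of the viruses lay within 1 SD of each other.

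None of the 3 genes listed for the anaphase-promoting complex and mitotic exit passed the virus test, and Cdc20 differed in direction between the sexes. Cdc20 (ENSMUSG00000006398) switches on the anaphase-promoting complex, the ubiquitin ligase that releases sister chromatids, and was at 18.5, 23.2, 23.1 and 25.3 CPM in GFP replicates 1 to 4 and 10.96, 16.8, 26.8 and 31.02 CPM in Has2 replicates 1 to 4. It was lower with Has2 in both female pairs and higher in both male pairs, so that the log2 fold change over all pairs was -0.17 (95% interval -0.64 to 0.29, SE 0.20). Cdca3 (ENSMUSG00000023505), a substrate adaptor that helps cells enter mitosis, was at 12.4, 12.1, 14.9 and 17.97 CPM in GFP replicates 1 to 4 and 13.1, 8.95, 16.9 and 21.5 CPM in Has2 replicates 1 to 4, with the highest log2 fold change of the 41 genes, 0.03 (95% interval -0.31 to 0.36, SE 0.14). Ube2c, the ubiquitin-conjugating enzyme of the complex, was at 18.6, 21.3, 23.3 and 27.8 CPM in GFP replicates 1 to 4 and 19.3, 13.1, 22.6 and 32.2 CPM in Has2 replicates 1 to 4. All 3 genes had their highest level in Has2 replicate 4.

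For chromosome structure 0 of 4 genes passed and the median was -0.39. Smc4 (ENSMUSG00000034349), a core subunit of condensin, which compacts chromosomes, was at 41.7, 24.3, 33.5 and 43.4 CPM in GFP replicates 1 to 4 and 52.8, 25.2, 13.2 and 16.4 CPM in Has2 replicates 1 to 4. The female Has2 libraries were above their GFP partners and the male ones far below them, and the log2 fold change was -0.59 (95% interval -1.36 to 0.19, SE 0.33). Mki67, the proliferation antigen Ki-67 that coats mitotic chromosomes, was at 21.8, 12.5, 21.4 and 37.1 CPM in GFP replicates 1 to 4 and 32.003, 14.5, 10.1 and 17.4 CPM in Has2 replicates 1 to 4, and showed the same split. Top2a (ENSMUSG00000020914), the topoisomerase that untangles sister chromatids, was at 41.5, 29.6, 36.6 and 61.1 CPM in GFP replicates 1 to 4 and 46.1, 26.6, 22.5 and 38.5 CPM in Has2 replicates 1 to 4, with a log2 fold change of -0.34 (95% interval -0.74 to 0.05, SE 0.16). Hmgb2, a chromatin protein abundant in cycling cells, was at 8.68, 9.38, 11.2 and 12.9 CPM in GFP replicates 1 to 4 and 8.54, 6.998, 6.69 and 9.06 CPM in Has2 replicates 1 to 4. It was lower in all 4 pairs, by little in that of replicate 1, and its value was -0.43 (95% interval -0.77 to -0.08, SE 0.14) with an edgeR adjusted p = 0.648, or -0.02 with GC correction.

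Cytokinesis, the final cut between daughter cells, was represented by Anln and Ect2, of which 0 passed. Anln (ENSMUSG00000036777), the anillin scaffold of the contractile ring, was at 32.3, 22.3, 29.01 and 42.1 CPM in GFP replicates 1 to 4 and 35.4, 22.7, 19.99 and 28.2 CPM in Has2 replicates 1 to 4, with a log2 fold change of -0.24 (95% interval -0.60 to 0.12, SE 0.15). Ect2 (ENSMUSG00000027699), which activates RhoA at the cleavage site, was at 6.82, 4.95, 5.06 and 8.69 CPM in GFP replicates 1 to 4 and 6.92, 5.19, 2.62 and 4.76 CPM in Has2 replicates 1 to 4, with a log2 fold change of -0.43 (95% interval -0.94 to 0.09, SE 0.22). Both were lower with Has2 in the male pairs and about level or higher in the female pairs.

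**Figure D2:**
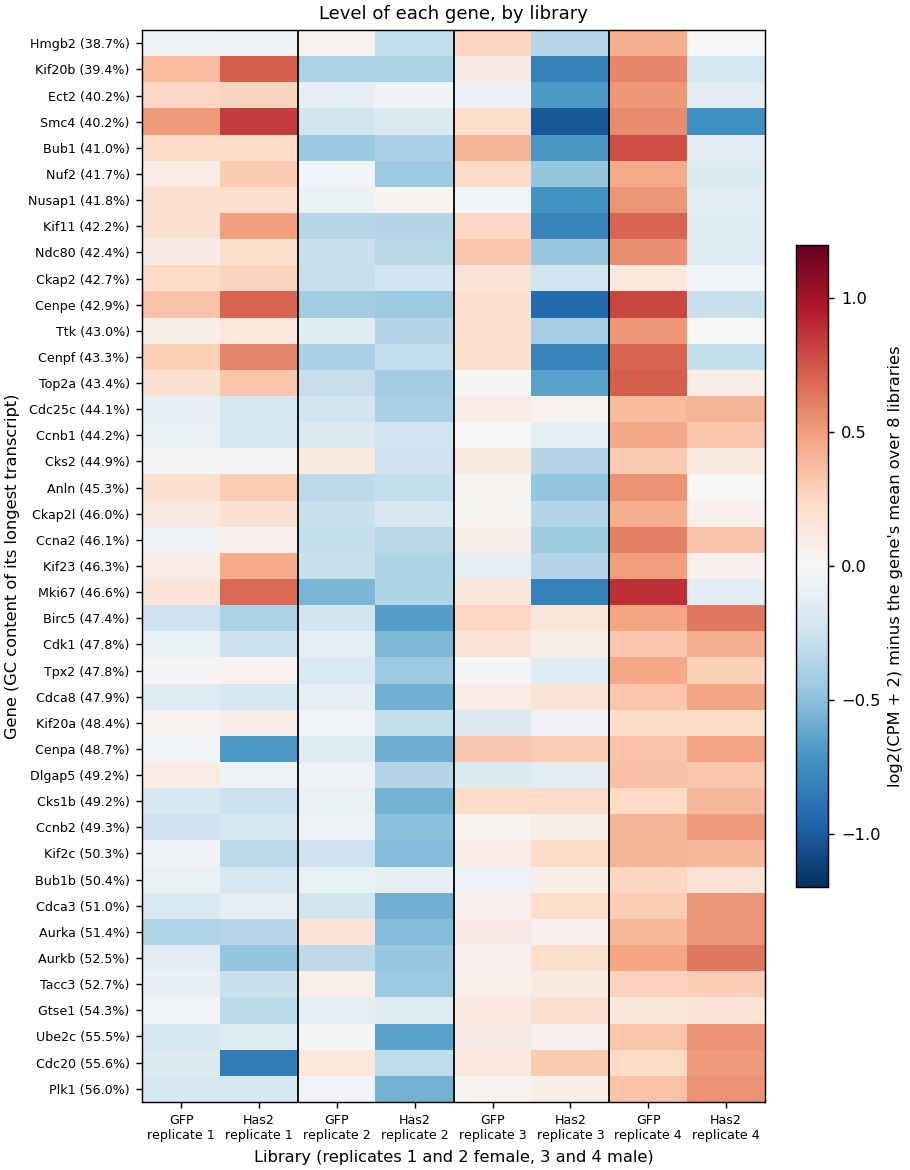
Level of each of the 41 genes (rows, ordered by the GC content of the longest transcript, from 38.7% to 55.98%) in each library (columns, in pairs), as log2(CPM + 2) minus the gene's mean over the 8 libraries. GFP replicate 4 is high for nearly every row, Has2 replicates 3 and 4 part the upper rows from the lower ones, and Has2 replicate 2 is low in most rows.

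The response to the virus differed between the female and the male pairs for 18 of the 41 genes. In 1 blocked fit with a virus term for each sex, edgeR called 16 genes with a lower fold change in the male pairs, where 18% of all genes were called in that direction, and 2 with a higher one, where 11.5% were. The 16 were Mki67, Top2a and Smc4 (chromosome structure), Ccna2, Bub1 and Ttk, the kinetochore genes Ndc80, Nuf2, Cenpe and Cenpf, the motors Kif11 and Kif20b, Nusap1 and Ckap2l, and both cytokinesis genes. The 2 were Cdc20 and Cenpa. Smc4 had a log2 fold change of 0.20 in female pairs against -1.37 in male pairs, a difference of -1.57 (SE 0.14; edgeR adjusted p = 3.94e-05). For Mki67 the values were 0.39 in female pairs against -1.09 in male pairs, a difference of -1.48 (SE 0.15; edgeR adjusted p = 6.88e-05). Cenpe was at 0.23 in female pairs against -1.51 in male pairs, a difference of -1.74 (SE 0.22; edgeR adjusted p = 0.000238). In these genes both male Has2 libraries lay below both male GFP libraries, and the female pairs held the opposite or no difference. Cdc20 was at -0.61 in female pairs against 0.26 in male pairs, a difference of 0.87 (SE 0.14; edgeR adjusted p = 0.00129). Cenpa was at -0.66 in female pairs against 0.06 in male pairs, a difference of 0.72 (SE 0.16; edgeR adjusted p = 0.00636).

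These calls rest on the pairing. With no replicate block edgeR called 0 of 41 genes and 0 of all genes for this difference. At an unadjusted p under 0.05 there were 4 of 41, and 2014 of all 15150 genes. The fitted differences stayed close, for example -1.62 for Smc4 and 0.85 for Cdc20. The blocked fit leaves 2 residual degrees of freedom per gene, and its error is shared across genes. DESeq2 with the block called 14 of the 41 genes, and 3577 of all 15150. Leaving out a pair leaves 1 pair in 1 sex, so only sizes are given for such fits. The median difference over the 41 genes was -0.04 with all pairs. It was 0.05, -0.18, -0.03 and 0.01 without replicates 1, 2, 3 and 4 in turn.

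**Figure D3:**
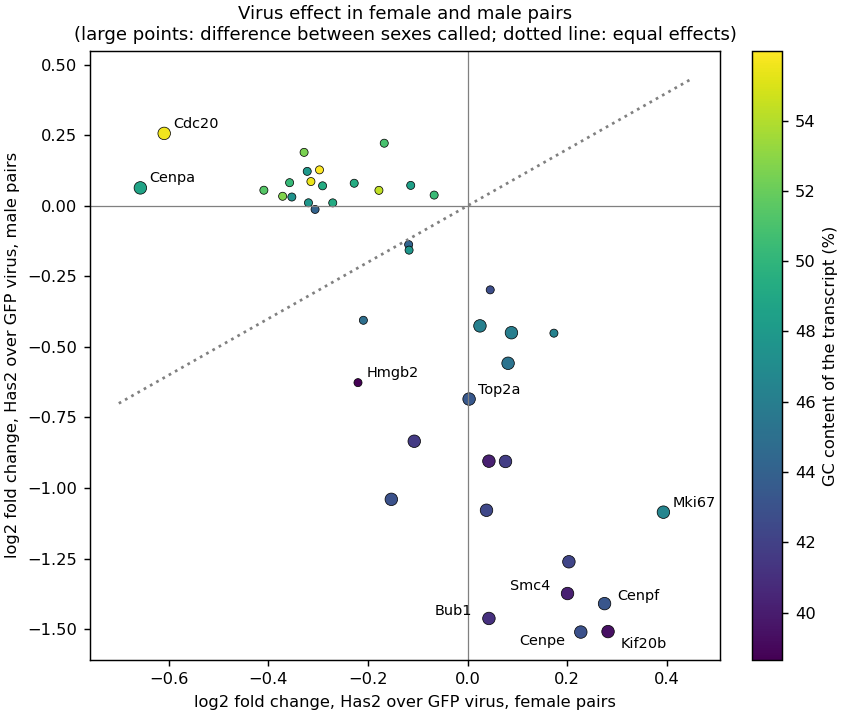
Log2 fold change, Has2 over GFP virus, of each of the 41 genes in the female pairs (x axis) and in the male pairs (y axis), coloured by the GC content of the transcript; large points mark the 18 genes whose difference between sexes was called, and the dotted line marks equal effects. Mki67, Cenpe, Cenpf, Kif20b and Smc4 lie at the lower right, and Cdc20 and Cenpa at the upper left.

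Within the sexes, 18 of the 41 genes were called lower with Has2 in the male pairs, where 19.2% of all genes were, and 0 higher. They were the 16 genes above together with Hmgb2 and Ckap2. In the female pairs 2 genes were called lower, Cenpa and Cdc20, where 4.83% of all genes were, and 0 higher. Over all 15150 genes, calls in either direction numbered 3765 in the male pairs, of which 2905 were lower. In the female pairs they numbered 1095, of which 731 were lower. The female value of Cenpa had an edgeR adjusted p = 0.0127 and that of Cdc20 an edgeR adjusted p = 0.012. Medians over the 41 genes were -0.12 for female pairs (-0.01 over all genes) and -0.16 for male pairs (0.04 over all genes). The 18 genes did not represent all roles alike, and the roles differ in GC content. All 4 chromosome structure genes (median GC 41.8%) and both cytokinesis genes (42.7%) were among them. Of the kinase engine (46.1%) 1 of 7 was, Ccna2, and of the genes listed for the anaphase-promoting complex and mitotic exit (55.5%) 0 of 3. With GC correction the counts for these roles were 2 of 4, 0 of 2, 0 of 7 and 0 of 3. Whether the roles differ from each other was not tested.

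**Figure D4:**
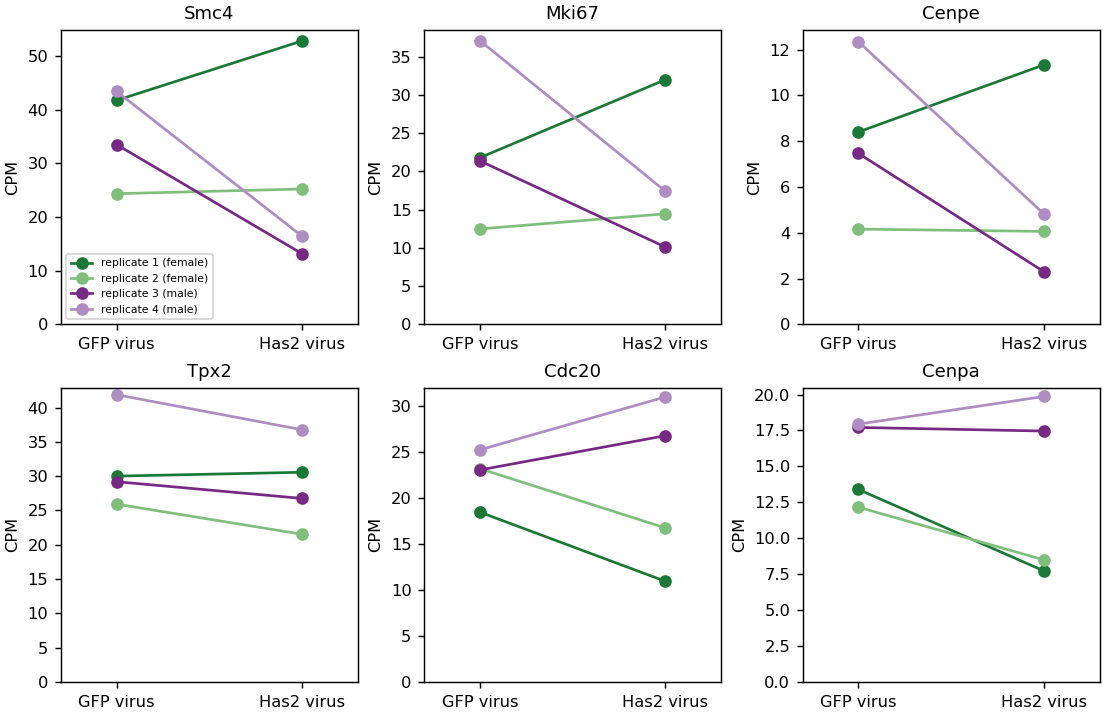
CPM of 6 genes in the 4 pairs, each line joining the GFP and Has2 library of 1 replicate number. Smc4, Mki67 and Cenpe fall in both male pairs and are level or higher in the female ones, Tpx2 changes little, and Cdc20 and Cenpa fall in both female pairs.

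The direction in the male pairs followed the base composition of the transcripts, as it did across all genes. Of the 41 genes, 17 have a longest transcript with under 45% GC, and all 17 had negative fold changes in the male pairs, with 14 called lower and a median of -0.91. Among all 3804 tested genes under 45% GC, 59.8% were called lower in the male pairs, and the median was -0.62. The 10 genes with over 50% GC, which include Cdc20, Plk1, Ube2c, Gtse1 and Aurkb, had 0 negative fold changes in the male pairs (median 0.08, against 0.19 for all 7331 such genes). All 10 had negative fold changes in the female pairs, with a median of -0.32 against -0.06 for all such genes, and 1 of them, Cdc20, was called. Spearman's rho between fold change and GC content, taken across the 41 genes and not across replicates, was 0.87 for male and -0.67 for female pairs, against 0.70 and -0.23 across all genes. Transcript length moved with it, with rho = -0.67 for male and 0.61 for female pairs, against -0.25 and 0.44 across all genes.

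**Figure D5:**
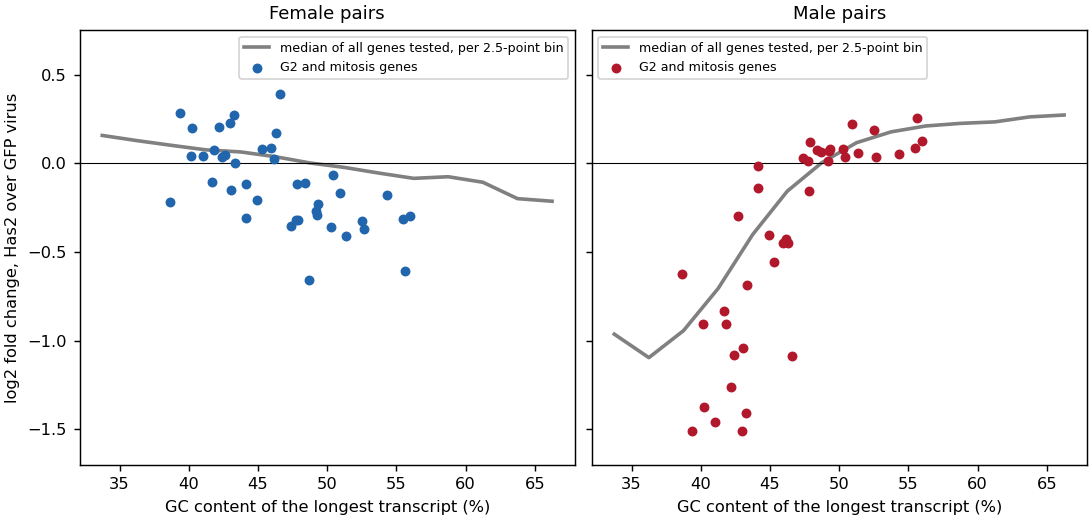
Log2 fold change, Has2 over GFP virus, of the 41 genes (points) against the GC content of the longest transcript, in the female (left) and male pairs (right); the grey line is the median of all genes tested in bins of 2.5 points. In the male pairs the genes under 45% GC lie below 0, as the grey line does, and several lie below that line.

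For the GC correction, a smooth trend of GC content and transcript length was removed from every library, and 7 of the 18 differences between sexes were still called. With it and the block, edgeR called 5 genes with a lower fold change in the male pairs (4.69% of all genes), Mki67 (-0.93), Cenpe (-0.89), Bub1 (-0.83), Cenpf (-0.79) and Smc4 (-0.73). Cenpa (0.71) and Cdc20 (0.49) were called in the other direction (5.93% of all genes). The other 11 differences were no longer called, but their sizes varied. Kif20b at -0.76 (edgeR adjusted p = 0.147), Kif11 at -0.74 (edgeR adjusted p = 0.062) and Ndc80 at -0.53 (edgeR adjusted p = 0.142) were the larger ones, while Top2a was at -0.03 and Nuf2 at -0.07. The virus effect over all pairs was also nearer 0 for many genes with GC correction, at -0.41 for Bub1, -0.36 for Ttk, -0.27 for Kif20b, -0.26 for Smc4, -0.14 for Top2a, -0.14 for Nusap1, -0.12 for Anln, -0.11 for Ect2 and -0.02 for Cks1b. Its sign turned for Cdc25c (0.07), Ccnb1 (0.09) and Ckap2 (0.15). With that correction 7 genes were called lower within the male pairs (6.3% of all genes), Mki67, Bub1, Ndc80, Cenpe, Cenpf, Kif11 and Smc4, and within the female pairs again Cenpa and Cdc20 (1.89% of all genes; edgeR adjusted p = 0.0217 and 0.0495). Even so, rho between the difference and GC content was 0.50 across the 41 genes, against 0.03 across all genes. How much of the difference between sexes belongs to base composition, to sex or to the preparation series was not tested.

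In edgeR's fit at an adjusted p under 0.05, differences between the 4 preparations were called for no larger a share of these genes than of all genes. In several other settings the share was larger than over all genes. In the fit with virus and replicate terms, edgeR called 3 of 41 genes for a difference between the 4 preparations (8.88% of all genes), Birc5, Aurkb and Cdc25c, with adjusted p values of 0.0345, 0.0394 and 0.0376. Aurkb stood at 6.32, 5.37, 7.45 and 10.7 CPM in GFP replicates 1 to 4 and 4.62, 4.68, 8.56 and 12.1 CPM in Has2 replicates 1 to 4, highest in replicate 4 with both viruses. Cdc25c was at 2.11, 1.77, 2.67 and 3.72 CPM in GFP replicates 1 to 4 and 1.797, 1.35, 2.53 and 3.85 CPM in Has2 replicates 1 to 4, with the same preparation at the top. With GC correction 16 of 41 genes were called (25.9% of all genes). DESeq2's likelihood ratio test called 20 of 41 on the unchanged counts, and 3218 of all 15150 genes. Without replicate 2 edgeR called 0 of 41, where it called 32 of 15232 genes. Without replicate 4 it called 0 of 41, where it called 1284 of 15220 genes. At an unadjusted p under 0.05 there were 21 of 41 genes, or 51.2%, against 29.3% of all genes. Among the GFP libraries replicate 4 was highest for 39 of the 41 genes and replicate 2 lowest for 28. Among the Has2 libraries replicate 4 was highest for 23 and replicate 1 for 17, and replicate 3 was lowest for 19 and replicate 2 for 17. The summed macrophage markers were also lowest in replicate 2, at 999 CPM with the GFP and 938 CPM with the Has2 virus, against 1791 to 2620 CPM in the other libraries. Across the 8 libraries their sum had a Pearson correlation of 0.68 with the mean of the 41 genes, and the sum of the fibroblast markers one of -0.83. With the mean log2 level of each list, to which every marker adds alike, the values were 0.74 and -0.66. The other marker sums ran from -0.56 for pericytes and smooth muscle to 0.58 for epicardial or mesothelial cells. The part of these cell types in the result was not tested.

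Levels of the 41 genes varied together across the 8 libraries, most closely among genes of similar GC content. Over the 820 pairs of genes the median Pearson correlation of log2(CPM + 2) was 0.64, and 88.2% of the pairs were positive. Between the 41 genes and the 15109 other genes tested the median was -0.01. These are descriptions over 8 libraries, which share preparations within a pair and 1 scaling. Cenpe and Cenpf had the highest correlation, 0.997, and Cdc20 and Smc4 the lowest, -0.67. Among the 17 genes under 45% GC the median was 0.83, among the 10 over 50% it was 0.87, and between these sets it was 0.13. For the differences within the 4 pairs, the median over all 820 pairs of genes was 0.03; within the sets it was 0.90 and 0.60, and between them -0.66, with 151 of 170 correlations negative. With GC correction of the levels, the medians were 0.69 over all pairs of genes, 0.60 and 0.80 within the sets and 0.61 between them. Tpx2 followed the mean of the other 40 genes most closely (0.97), then Ccna2 (0.95), while Cdc20 and Smc4 followed it least (0.32 each).

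Outside the 41, the 8 genes with a mean of at least 5 CPM whose levels were most like their mean over the 8 libraries were Srgn, Pclaf, Neat1, Nfkbiz, Eef1e1, Wdr12, Rrm2 and Prkg2, with correlations from 0.94 to 0.97. Pclaf, a protein that binds the replication clamp, was at 7.77, 5.81, 9.64 and 16.8 CPM in GFP replicates 1 to 4 and 8.86, 4.78, 5.201 and 9.95 CPM in Has2 replicates 1 to 4. Rrm2, a subunit of ribonucleotide reductase, which makes the building blocks of DNA, was at 19.5, 16.1, 18.9 and 30.7 CPM in GFP replicates 1 to 4 and 20.6, 12.99, 18.7 and 28.7 CPM in Has2 replicates 1 to 4. Srgn encodes serglycin, a proteoglycan of secretory granules in blood cells, and was at 11.7, 7.62, 12.3 and 19.9 CPM in GFP replicates 1 to 4 and 11.2, 7.18, 7.76 and 14.1 CPM in Has2 replicates 1 to 4. Each had GFP replicate 4 as its highest library and a replicate 2 library as its lowest, an order that Tpx2 shares.

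Other lists of cell cycle genes also held no gene called between the viruses. Over all genes, 54.8% had negative fold changes, 19.2% were called lower for male pairs and 4.83% for female pairs. Of 15150 genes, 3765 were called in either direction for male pairs, 2905 of them lower. For female pairs 1095 were called, 731 of them lower. Of 61 tested genes in a list of other mitotic genes, 47 had negative fold changes with Has2 and 0 were called (edgeR), with a median of -0.19, while 24 were called lower for the male and 2 for the female pairs. The 3 with the smallest p were Ncapg, a condensin subunit, at -0.73 (SE 0.23), Cenpw, a centromere protein, at -0.52 (SE 0.17), and the mitotic kinase Pbk at -0.40 (SE 0.14). With GC correction Ncapg was at -0.27 and Cenpw at -0.05. Pbk was at 6.78, 5.21, 7.53 and 9.58 CPM in GFP replicates 1 to 4 and 4.42, 4.92, 5.22 and 7.39 CPM in Has2 replicates 1 to 4, lower in all 4 pairs, and at -0.13 with GC correction. Of 52 genes of DNA replication and the G1/S transition 39 had negative fold changes and 0 were called, with a median of -0.09; 10 were called lower and 2 higher for male pairs, and 3 lower for female pairs. Gmnn, geminin, which blocks renewed licensing of origins, was at -0.45 (SE 0.14), and the cyclin Ccne2 at -0.99 (SE 0.34), or -0.51 with GC correction. Mcm2, a subunit of the replicative helicase, was at 24.1, 21.6, 20.000 and 31.9 CPM in GFP replicates 1 to 4 and 27.5, 24.5, 25.6 and 39.7 CPM in Has2 replicates 1 to 4, higher with Has2 in all 4 pairs, with a log2 fold change of 0.26 (SE 0.09; edgeR adjusted p = 0.648). Of 24 E2F, pocket protein and MuvB regulators, which switch these genes on and off, 14 had negative fold changes and 0 were called (median -0.03), with 7 called lower in the male pairs, and 1 lower and 2 higher in the female pairs. Mybl1 was at -0.70 (SE 0.39), E2f1 at 0.14 (SE 0.10) and E2f5 at -0.21 (SE 0.15); with GC correction they were at -0.31, 0.08 and -0.09.

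Some counts could be shared with other genes, since nothing at hand states the strand setting of the counting. Transcripts of Ccna2 and Exosc9 overlap on opposite strands over 431 bases, those of Kif20a and Cdc23 over 979 bases and those of Cdc25c and Gm3550 over 623 bases, so the values of Ccna2, Kif20a and Cdc25c are uncertain to that extent. Ccnb1 has 4 near-identical copies and Hmgb2 has 5, of at least 95% identity over at least 300 bases, which held at most 3 counts in a library.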

How the data were processed

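Reads of 8 poly(A) RNA libraries were counted per Ensembl gene, and the authors deposited raw counts in 1 table. Per the submitters' processing notes FastQC 0.10.1, HTSeq 0.10.0 and build mm39 were used, and per the labels' protocols the kit was strand-specific. Aligner, annotation release and strand setting were not given in the sources used here. Symbols, GC content and the length of each gene's longest transcript came from GENCODE M21: 52081 identifiers matched and 3333 did not, and GC and length were known for 99.8% of genes tested.

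Counts were tested with edgeR 4.0.16 (R 4.3.3; TMM scaling, default expression filter, quasi-likelihood F-test), with the replicate number as a block, and Benjamini-Hochberg adjusted p values called under 0.05 over 15150 genes. The difference between sexes was tested with a virus term per sex in that blocked fit, and preparations by a joint test of the replicate terms. The pairing comes from the preparation identifiers in the labels: the correlation of deviations from a group's mean was 0.69, 0.60, 0.60 and 0.40 for replicates 1 to 4, against -0.51 to 0.42 across different numbers. Libraries of a group all differed by more than sampling noise (chi-square per degree of freedom 45.5 to 368). For the 41 genes the median SE of the virus effect was 0.15. Correlations and means used log2(CPM + 2). The GC and length trend was a spline with 5 degrees of freedom each, removed from every library through offsets. Near copies were sought with blastn 2.17.0.

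Alternatives were RLE and library-total scaling, other expression filters and thresholds, no block, DESeq2 1.42.0, limma-voom (limma 3.58.1), the trend removal and leaving out libraries or pairs; the trend removal within 1 sex was added after seeing the data. The tests were tried on simulated data. The 41 genes, the lists and the tests were chosen with earlier results of these data known. Values are given in full for the genes of each role with the smallest and largest virus fold change and the highest CPM per kb, and outside the 41 for up to 3 genes of smallest p per list and the 8 most alike; per-library values of other genes among the 41 were chosen after their values were seen.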

Additional observations from a re-analysis of the deposited data

Results flagged for a closer look

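Of the 82 sets of 4 libraries tested (each of the 41 genes under each virus), 1 held a library far from the other 3, where chance alone gives about 1 in 20 such sets. Bub1b was at 16.9 CPM in GFP replicate 4, against 12.9 to 13.2 CPM in the other GFP libraries, a gap past Dixon's critical value for 4 samples.

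The virus effect differed between male and female pairs, by edgeR's blocked test, for 18 genes. The difference, male minus female, on the log2 scale was -1.79 for Kif20b, -1.74 for Cenpe, -1.68 for Cenpf, -1.57 for Smc4, -1.50 for Bub1, -1.48 for Mki67, -1.46 for Kif11, -1.12 for Ndc80, -0.98 for Nusap1, -0.95 for Ect2, -0.89 for Ttk, -0.73 for Nuf2, -0.69 for Top2a, -0.64 for Anln, -0.54 for Ckap2l and -0.45 for Ccna2. It was 0.72 for Cenpa and 0.87 for Cdc20. Each sex has 2 pairs, and sex cannot be told apart from the preparation series.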

How the results depend on the processing

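Each virus fit with all 4 pairs called 0 of 41 genes, where 0 to 118 of all genes were called, the most with no expression filter. Within the sexes 2 were called in female and 18 in male pairs, or 2 and 7 with GC correction. Of all 15150 genes 1095 and 3765 were called, or 413 and 1848 with GC correction. Negative fold changes numbered 25 in female pairs, 23 in male pairs and 26 in male pairs with GC correction, against 40 over all pairs, and 18 to 41 when libraries or pairs were left out (24 without Has2 replicate 2, 26 without Has2 replicate 1). The median ran from -0.31 without Has2 replicate 4 to 0.0235 without GFP replicate 4, with -0.0265 without Has2 replicate 2, and it was -0.0725 in female pairs with GC correction. The difference between sexes was called for 18 genes with the replicate block and for 0 without it; with GC correction it was called for 7, of which 5 were lower in male pairs, against 16. Other scalings, filters and thresholds gave 14 to 23, where 2524 to 5683 of all genes were called. With a pair left out, which leaves 1 pair in 1 sex, the median difference over the 41 genes ran from -0.18 to 0.05. Over all genes the median SE of a virus effect was 0.14 with the replicate block and 0.23 without it. Differences between preparations were called for 0 of 41 genes at an adjusted p under 0.01 (299 of all 15150) and 11 under 0.1 (2397). They were called for 7 with library totals (1391) and 8 with no expression filter (2214 of 28130). With GC correction there were 16 (3929 of 15150) and with DESeq2 20 (3218). When pairs were left out there were 0 to 2, where 32 to 1284 of all genes were called. The median correlation between the genes was 0.0345 for differences within pairs, and 0.36 to 0.72 in the other settings. Of 475 alternative virus values of the named genes 75 changed sign and 15 became called, all within 1 sex; of 297 alternative differences between sexes 46 lost and 5 gained a call, and 0 of those called changed sign. Where a value moved, the cause was not tested. Of these differences those of Nuf2, Ccna2, Ttk and Ckap2l lost their call most often. Depth limits the rarest genes most: Kif20b had 49 counts in its lowest library.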

Other observations

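Cell cycle brakes and upstream signals, which were not part of the mitotic set, held no gene that passed the virus test. Of 8 inhibitors of cyclin-dependent kinases 4 had negative fold changes with the Has2 virus and 0 were called by edgeR, as were 0 of 7 G1 cyclins and kinases and 0 of 11 mitogen response genes. Cdkn1a, which encodes the inhibitor p21, was abundant at 562, 865, 667 and 604 CPM in GFP replicates 1 to 4 and 656, 822, 784 and 711 CPM in Has2 replicates 1 to 4, with a log2 fold change of 0.15 (SE 0.10). Replicate 2, where the mitotic genes were low, had the highest Cdkn1a level with both viruses. Of the 11 mitogen response genes 5 had negative fold changes. Etv5 and Fosl1 were at 0.19 (SE 0.09) and 0.26 (SE 0.16), while Fos was at -0.18 (SE 0.10) and lower with Has2 in each pair. Fosl1, a transcription factor of the AP-1 family, was highest in replicate 4 with the Has2 virus, at 34.02, 17.6, 26.7 and 47.4 CPM in GFP replicates 1 to 4 and 53.5, 14.2, 32.7 and 62.3 CPM in Has2 replicates 1 to 4.

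Of 16 subunits and regulators of the anaphase-promoting complex 10 had negative fold changes and 0 were called, with a median of -0.03. Anapc4, a scaffold subunit, was at 113, 118, 115 and 100.1 CPM in GFP replicates 1 to 4 and 104, 107, 77.5 and 72.9 CPM in Has2 replicates 1 to 4, lower with Has2 in all 4 pairs, with a log2 fold change of -0.32 (SE 0.11; edgeR adjusted p = 0.648), or -0.16 with GC correction. Of 11 inhibitors of mitosis and phosphatases 6 had negative fold changes and 0 were called, and the checkpoint kinase Chek1 was at -0.65 (SE 0.27), or -0.35 with GC correction.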
